A study of Rattus norvegicus with 12 samples.

Results

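Neurotransmitter receptor subunits are the proteins through which neurons and glia detect glutamate, GABA, glycine, acetylcholine and serotonin. A set of 46 rat genes coding for such subunits was examined in contused spinal cord. Of these, 39 could be found among the 17421 gene identifiers of the expression tables, and the other 7 (Grin2c, Grik1, Grm3, Grm7, Gabra3, Glra3 and Htr2c) could not be named there and were left out. The set holds AMPA, NMDA, kainate, delta and metabotropic glutamate receptors, GABA-A and GABA-B receptors, glycine receptors, nicotinic and muscarinic acetylcholine receptors, and serotonin receptors.

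RNA-seq was performed on a 1-mm piece of cord through the lesion of 12 female rats, aged 16 to 18 weeks at injury, that had all received a 200 kdyn contusion. Athymic Nude rats (AN, Hsd:RH-rnu/rnu) carry a homozygous rnu allele and lack a functional thymus, and so make fewer and less mature T cells, whereas Sprague-Dawley rats (SD, Hsd:SD) have an intact thymus. The groups were 3 SD and 3 AN rats at 1 week (acute phase) and 3 SD and 3 AN rats at 8 weeks (chronic phase). No uninjured cord was among the samples, and the strains differ in genetic background as well as in the rnu allele, so the effects of these cannot be told apart.

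Levels are FPKM, the number of sequenced fragments of a gene divided by its exon length and by a measure of sequencing depth. The authors ran Cufflinks with quartile normalization. The 3 rats of a group share a single FPKM in each table. The spread between rats is therefore unknown here, no difference was tested, and no error can be attached to the values below. Strain differences are given as the log2 ratio of FPKM in AN to FPKM in SD cord, so that a negative value means a lower level in AN rats. A gene was counted as lower or higher where the strains were at least 2-fold apart (a log2 ratio of 1 or more in size), both had an FPKM above 0, and the table marked the gene as having enough fragments. The acute and chronic tables were normalized separately, so levels at 1 and 8 weeks are set side by side only. Pairs of levels below give SD first and AN after "against", and where a second pair or ratio follows, it is that of the chronic phase.

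Ionotropic glutamate receptors (AMPA, NMDA and kainate) carry fast excitation, and metabotropic glutamate receptors act more slowly through G proteins. GABA-A and glycine receptors are chloride channels that carry fast inhibition in the spinal cord, where glycine is a main inhibitory transmitter. Most such receptors are assembled from several different subunits, and the subunit makeup sets the properties of the channel. Several are also made by astrocytes and by cells of the oligodendrocyte lineage.

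In the acute phase, the median receptor subunit of each class was at a lower level in AN than in SD cord. Of 37 members with a ratio, 29 were at least 2-fold lower in AN rats and 0 were at least 2-fold higher. Over all genes, 12.7% of 11837 were lower and 2.15% were higher by the same rule. The median log2 ratio of the members was −1.78 (3.42-fold lower in AN rats), against −0.01 over all genes, and 36 of 37 lay below 0. The lowest was Grm4 (metabotropic glutamate receptor 4) at −4.66, and the highest was Grin3b (an NMDA receptor subunit) at 0.07.

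In the chronic phase most members were again lower in AN cord. Of 38 members, 20 were at least 2-fold lower in AN rats and 0 were higher, where 7.17% of 11952 genes were lower and 2.46% were higher. The median log2 ratio was −1.15 (2.22-fold lower), against 0.00 over all genes, and 35 of 38 members lay below 0. The lowest was Glra2 (glycine receptor alpha 2) at −3.70, and the highest was Chrm1 (muscarinic receptor M1) at 0.73. In bulk tissue, fewer cells of a type and less RNA per cell cannot be told apart. With a pseudocount of 1 FPKM, which shrinks the ratios of low genes, 17 members were at least 2-fold lower in the acute phase (median −0.85) and 10 in the chronic phase (−0.69).

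These counts depend on how genes could be named. The copy of the study's supplementary gene table used for names holds 1997 rows, all of them genes that the authors called different between strains in the acute phase. It named 30 of the 39 members, so a member with a strain difference was more likely to be named. With those names withheld, 32 members were still named by their position among neighbouring genes. Of these, 23 of 30 were at least 2-fold lower at 1 week (median log2 ratio −1.70) and 16 of 31 at 8 weeks (−1.08). Among the 9 members that the supplementary table did not name, 3 of 7 were lower at 1 week (median −0.64) and 2 of 8 at 8 weeks (−0.79). If each of the 7 members without a name had entered and been under 2-fold apart, the counts would be 29 of 44 (65.9%) and 20 of 45 (44.4%).

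**Figure D1:**
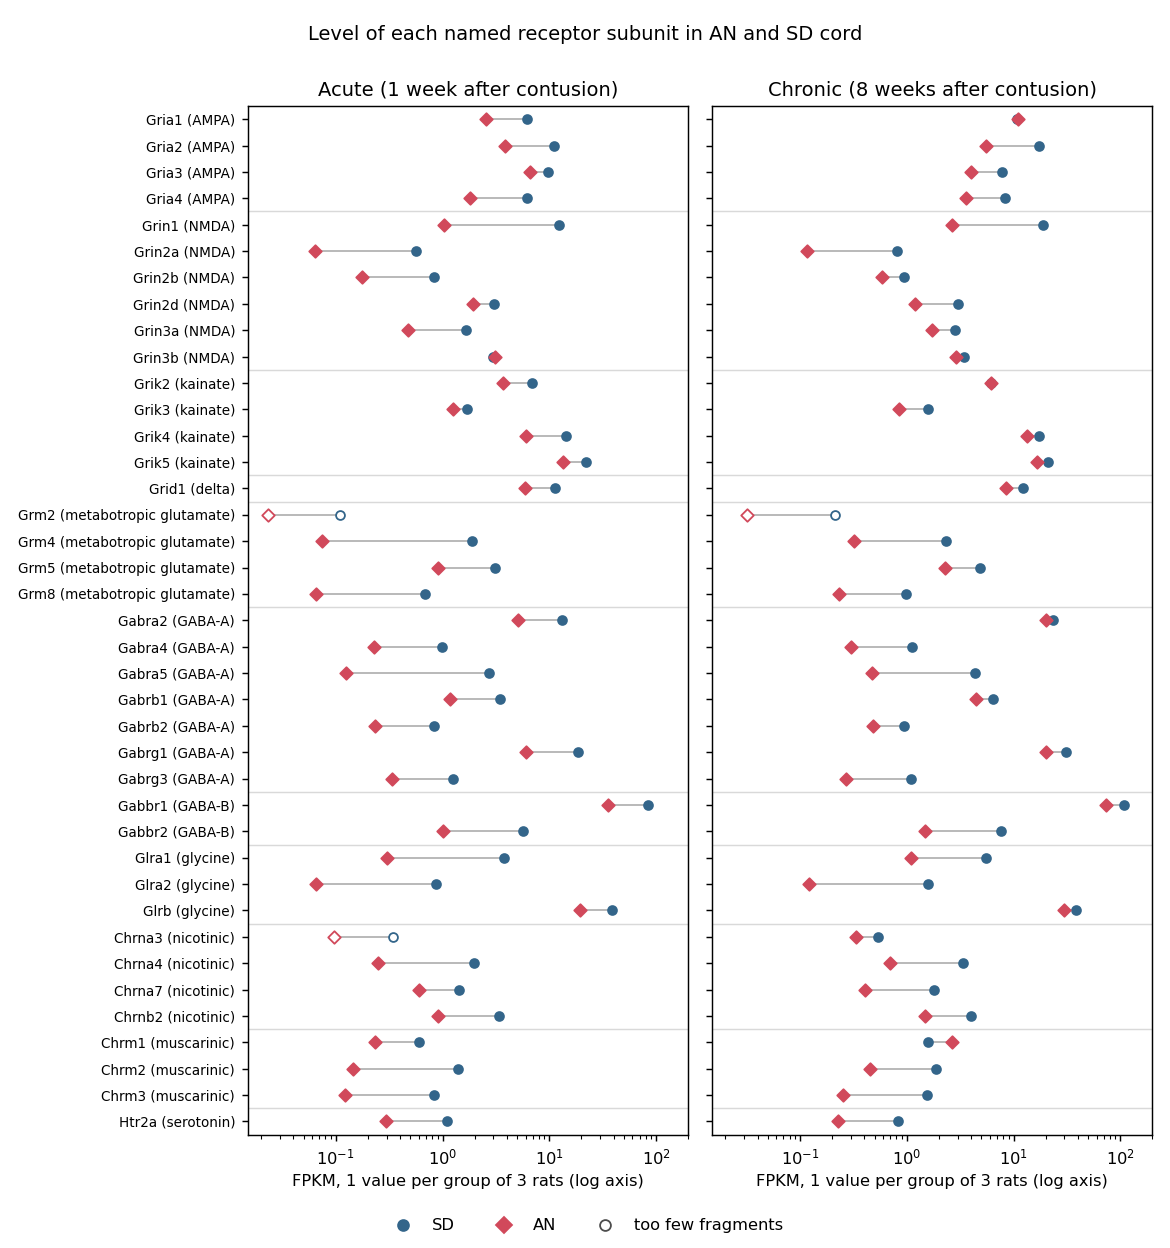
FPKM of each of the 39 named receptor subunits (rows, grouped by class) in SD (blue circles) and AN (red diamonds) cord, on a log axis, with the acute phase on the left and the chronic phase on the right. Each point is 1 value for 3 rats with no error, and open symbols mark genes with too few fragments to enter. In the acute phase the AN point lies left of the SD point for all but Grin3b, and in the chronic phase Gria1 and Grik2 nearly coincide while Chrm1 lies to the right.

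Promoter sequences are shown for 4 members with unlike strain ratios. Grin1, Gabra5 and Glra2 were among the lowest in AN rats in both phases. Glrb was under 2-fold apart in both, though several other members had ratios nearer to 0. The windows are from RefSeq on build GRCr8, whereas the expression tables use RN4. Each runs from 250 bases before to 50 bases after the annotated start of the gene, is written 5′ to 3′ on the strand of the gene, and has GGGCGG on either strand (a GC box, the letters bound by Sp1-type factors) in capitals.
Grin1 (chr3:28528705-28529004, minus strand): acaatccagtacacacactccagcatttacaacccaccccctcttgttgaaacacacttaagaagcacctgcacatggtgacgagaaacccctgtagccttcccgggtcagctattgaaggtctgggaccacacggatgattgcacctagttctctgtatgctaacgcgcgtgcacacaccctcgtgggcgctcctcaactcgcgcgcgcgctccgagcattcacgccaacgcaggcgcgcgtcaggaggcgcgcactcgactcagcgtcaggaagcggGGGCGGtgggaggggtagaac
Gabra5 (chr1:117516557-117516856, minus strand): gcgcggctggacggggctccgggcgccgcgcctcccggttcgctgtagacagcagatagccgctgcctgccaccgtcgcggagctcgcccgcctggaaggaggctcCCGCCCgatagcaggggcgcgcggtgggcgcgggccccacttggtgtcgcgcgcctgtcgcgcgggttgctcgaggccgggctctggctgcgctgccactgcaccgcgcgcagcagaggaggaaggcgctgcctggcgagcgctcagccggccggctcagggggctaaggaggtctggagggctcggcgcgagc
Glra2 (chrX:32651937-32652236, plus strand): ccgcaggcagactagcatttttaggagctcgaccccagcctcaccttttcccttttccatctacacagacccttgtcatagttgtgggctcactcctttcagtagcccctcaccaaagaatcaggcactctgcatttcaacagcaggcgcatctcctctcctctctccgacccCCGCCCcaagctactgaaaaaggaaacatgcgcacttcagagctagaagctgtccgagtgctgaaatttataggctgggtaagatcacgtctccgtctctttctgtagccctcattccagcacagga
Glrb (chr2:168505565-168505864, minus strand): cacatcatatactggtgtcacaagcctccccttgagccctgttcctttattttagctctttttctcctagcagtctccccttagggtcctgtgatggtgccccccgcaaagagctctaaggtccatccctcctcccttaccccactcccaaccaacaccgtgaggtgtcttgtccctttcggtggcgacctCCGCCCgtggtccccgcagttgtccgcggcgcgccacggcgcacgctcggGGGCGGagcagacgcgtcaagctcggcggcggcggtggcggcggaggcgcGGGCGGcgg
Each of the 4 windows holds the GC box, 3 times in Glrb and 1 time in each of the others, so its presence does not separate Glrb from the subunits that were far lower in AN cord. The Grin1 window has 25 CpG dinucleotides, that of Gabra5 has 42, that of Glra2 has 9 and that of Glrb has 28. A window was found for 33 of the 46 members, 27 of them named in the expression tables. The GC box was in 18 of these 33 (54.5%) and in 33.1% of all 33469 windows. The median number of CpG dinucleotides was 12 in the members and 7 in all windows. A TATAAA box was in 2 members (6.06%) and in 14.2% of all windows. TTCAGCACC, the left part of the element bound by the neuronal repressor REST, was in 0 of the 33 and in 0.356% of all windows, which says only that these letters do not occur in these stretches.

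AMPA receptors carry most fast excitation, and all 4 subunits were named. Gria2, the subunit that keeps calcium out of the channel, was at 11.1 FPKM in acute SD and 3.83 in acute AN cord, and at 17.4 in chronic SD and 5.52 in chronic AN cord. Its log2 ratio was therefore similar in both phases, −1.53 and −1.66. Gria4 was at 6.24 against 1.82 FPKM at 1 week and 8.25 against 3.56 at 8 weeks (−1.78 and −1.21). Gria3 differed by less, at 9.77 against 6.57 FPKM and then 7.78 against 4.02 (−0.57 and −0.95), under 2-fold in both phases.

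Gria1 was the AMPA subunit whose strain ratio was furthest apart between phases. It was at 6.17 FPKM in SD and 2.53 in AN cord at 1 week (−1.28) and at 10.8 and 11.0 at 8 weeks (0.04). The locus listed for Gria1 is short (chr10:42613358-42616610, RN4), so its FPKM may not cover the whole transcript. Gria1 made up 24.3% of the summed AMPA subunit FPKM in chronic SD cord and 45.7% in chronic AN cord, while Gria2 made up 39.4% and 22.9%. In the acute phase Gria1 made up 18.5% in SD and 17.2% in AN cord, and Gria2 33.3% and 26.0%. The class median was −1.41 at 1 week, with 3 of 4 subunits lower, and −1.08 at 8 weeks, with 2 of 4 lower.

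NMDA receptors are glutamate-gated channels that also need a co-agonist, and each contains GluN1, the product of Grin1 (chr3:3453783-3480381, RN4). Grin1 was at 12.3 FPKM in acute SD and 1.03 in acute AN cord, 12.0-fold lower (log2 ratio −3.59). In the chronic phase it was at 18.9 and 2.68 FPKM, 7.07-fold lower (−2.82). Grin1 was the most abundant NMDA subunit in SD cord in both phases, and in AN cord it was below Grin3b in both.

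The GluN2 subunits differed among themselves. Grin2a was at 0.561 against 0.0644 FPKM at 1 week and 0.801 against 0.117 at 8 weeks (−3.12 and −2.78). Grin2b was at 0.841 against 0.175 FPKM (−2.27) and then at 0.942 against 0.590 (−0.67), so it was more than 2-fold lower in the acute phase only. Grin2d had the opposite order, at 3.03 against 1.94 FPKM (−0.64) and then 3.02 against 1.20 (−1.33), and was the only member of the 37 with both ratios that was at least 2-fold lower in the chronic phase alone.

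Of the GluN3 subunits, which lower the calcium permeability of NMDA receptors, Grin3a was at 1.67 against 0.479 FPKM (−1.80) and then at 2.82 against 1.71 (−0.72). Grin3b was nearly level between strains, at 2.96 against 3.11 FPKM (0.07) and 3.43 against 2.89 (−0.24). The loci of both GluN3 genes also list another gene, so their FPKM may include its fragments. The NMDA median was −2.03 at 1 week (4 of 6 lower) and −1.03 at 8 weeks (3 of 6 lower), and without both GluN3 genes it was −2.69 and −2.05.

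The NMDA subunit makeup differed more between strains than that of any other ionotropic glutamate class. Grin1 was 57.7% of the summed NMDA subunit FPKM in acute SD and 15.1% in acute AN cord, and 63.2% and 29.1% in the chronic phase. With Grin3b left out, Grin1 was still 66.9% against 27.9% at 1 week and 71.4% against 42.5% at 8 weeks. Grin2d was then the largest part in acute AN cord, with 52.7% against 16.4% in acute SD cord.

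Kainate receptors act both before and after the synapse, and 4 of their subunits were named. Grik5 was at 22.2 against 13.4 FPKM at 1 week and 21.1 against 16.7 at 8 weeks (−0.72 and −0.34). Grik4 was at 14.3 against 6.01 FPKM and then 17.3 against 13.4 (−1.25 and −0.36), the only kainate subunit at least 2-fold lower in either phase. Both code for high-affinity subunits, which form channels only together with those of the Grik1 to Grik3 group.

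Grik2 was at 6.96 against 3.67 FPKM at 1 week (−0.92) and at 6.14 against 6.15 at 8 weeks (0.00), where the strains were level. Grik3 was at 1.70 against 1.24 FPKM and then at 1.57 against 0.840 (−0.46 and −0.90). The kainate median was −0.82 at 1 week and −0.35 at 8 weeks, the nearest to 0 of the classes with more than 1 ratio. With a pseudocount of 1 FPKM the acute order changed, with −0.72 for kainate and −0.60 for NMDA receptors, while the chronic kainate median was −0.33. Grid1, a delta receptor that organizes synapses, had similar values, at 11.3 against 5.92 FPKM (−0.93) and 12.4 against 8.41 (−0.55).

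Of the metabotropic glutamate receptors, 3 of the 4 named had enough fragments for a ratio. Grm4, a presynaptic receptor that curbs transmitter release, was at 1.88 FPKM in acute SD and 0.0743 in acute AN cord, 25.4-fold lower. In the chronic phase it was at 2.34 and 0.318 FPKM (log2 ratio −2.88). Grm8, of the same group, was at 0.692 against 0.0655 FPKM and then 0.986 against 0.234 (−3.40 and −2.07).

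Grm5, which couples to calcium release and is also made by astrocytes, was at 3.08 against 0.905 FPKM and then 4.88 against 2.30 (−1.77 and −1.08). Grm5 was 53.4% of the summed FPKM of the class in acute SD and 84.7% in acute AN cord. Grm2 had too few fragments to enter in either phase, with FPKM between 0.0230 and 0.211. The class median was −3.40 at 1 week and −2.07 at 8 weeks, with 3 of 3 lower in both. The order of the classes depends on low FPKM values: with a pseudocount of 1 FPKM the acute medians were −1.10 for metabotropic glutamate, −0.94 for glycine and −1.17 for AMPA receptors, and the chronic ones −0.83, −1.20 and −0.91.

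**Figure D2:**
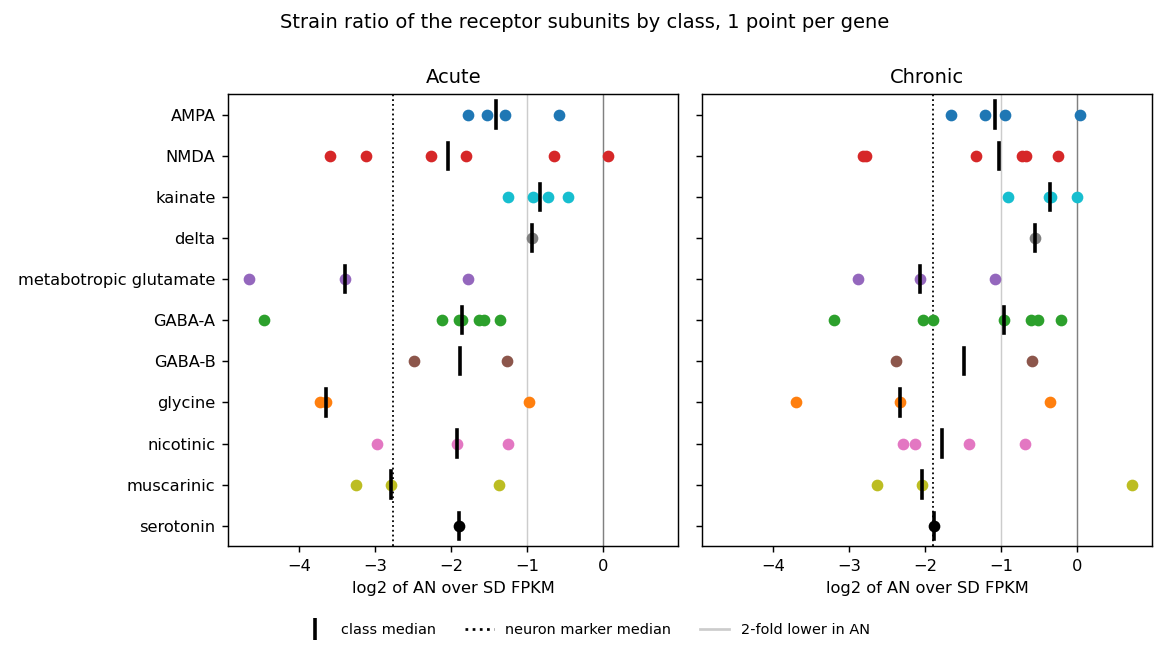
Log2 ratio of AN to SD FPKM for each receptor subunit (points, 1 per gene, no error) by class, for the acute (left) and chronic (right) phase, with a black bar at each class median, a dotted line at the median of the neuron markers and grey lines at 0 and at 2-fold lower. Without a pseudocount, as plotted, the kainate median is nearest to 0 among classes with more than 1 point in both phases, and the metabotropic glutamate and glycine medians lie furthest below 0. This order changes with a pseudocount of 1 FPKM.

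GABA-A receptors are built around alpha, beta and gamma subunits, and 7 of the 8 members were named. At 1 week 7 of 7 were at least 2-fold lower in AN cord (median −1.85), and at 8 weeks 3 of 7 were (−0.96). The alpha subunits spanned nearly the whole range. Gabra5, the alpha 5 subunit of receptors outside the synapse, was at 2.72 FPKM in acute SD and 0.123 in acute AN cord, 22.0-fold lower, and at 4.36 and 0.473 in the chronic phase, 9.21-fold lower.

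Gabra4 was at 0.990 against 0.229 FPKM and then 1.12 against 0.303 (−2.11 and −1.89). Gabra2 was at 13.1 against 5.15 FPKM at 1 week (−1.35) and at 23.3 against 20.1 at 8 weeks (−0.21), where the strains lay close together. Gabra2 and Gabra4 lie together with Gabrb1 and Gabrg1 on chromosome 14 (RN4), and Gabra5 and Gabrg3 lie together on chromosome 1.

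Both beta subunits were under 2-fold apart in the chronic phase. Gabrb1 was at 3.49 against 1.18 FPKM and then 6.38 against 4.48 (−1.56 and −0.51), and Gabrb2 was at 0.839 against 0.232 and then 0.937 against 0.481 (−1.85 and −0.96). Gabrg1, the most abundant GABA-A subunit here, was at 18.6 against 6.02 FPKM and then 31.0 against 20.3 (−1.63 and −0.61). Gabrg3 kept a similar ratio, at 1.24 against 0.334 FPKM and then 1.10 against 0.269 (−1.90 and −2.03). At 8 weeks the 3 genes of the chromosome 14 cluster other than Gabra4 were thus under 2-fold apart, while Gabra5 and Gabrg3 on chromosome 1 were both over 4-fold lower in AN cord.

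The share of the most abundant GABA-A subunit was alike in the strains. Gabrg1 was 45.3% of the summed FPKM of the class in acute SD and 45.4% in acute AN cord, while Gabra5 was 6.64% and 0.931%. The GABA-B receptor, a G protein-coupled receptor, needs both of its subunits at the cell surface. Gabbr1, the most abundant member of the whole set per length, was at 84.4 against 35.2 FPKM and then 109 against 72.8 (−1.26 and −0.59). Its partner Gabbr2, the subunit that couples to the G protein, was at 5.68 against 1.01 FPKM and then 7.64 against 1.47 (−2.49 and −2.38). Gabbr2 was thus 5.61-fold lower in acute and 5.20-fold lower in chronic AN cord, and was 6.53% of the summed GABA-B FPKM in chronic SD and 1.98% in chronic AN cord.

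Glycine receptors join alpha subunits, which bind glycine, to the beta subunit, which anchors them at the synapse. Glra1, the main adult alpha subunit, was at 3.78 FPKM in acute SD and 0.302 in acute AN cord, 12.5-fold lower, and at 5.52 and 1.10 in the chronic phase, 5.02-fold lower. Glra2, the main alpha subunit before birth, was at 0.866 against 0.0654 FPKM and then 1.57 against 0.121, 13.2-fold and 13.0-fold lower. Glra2 was therefore lower by nearly the same factor at 1 and 8 weeks.

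Glrb, the beta subunit, was under 2-fold apart in both phases, at 38.4 against 19.5 FPKM and then 38.4 against 29.9 (−0.98 and −0.36). Its ratio was above those of Glra1 and Glra2 in both phases. Glrb was 89.2% of the summed glycine receptor FPKM in acute SD and 98.2% in acute AN cord, and 84.4% and 96.1% in the chronic phase. The class median was −3.65 at 1 week and −2.33 at 8 weeks, with 2 of 3 lower in both.

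**Figure D3:**
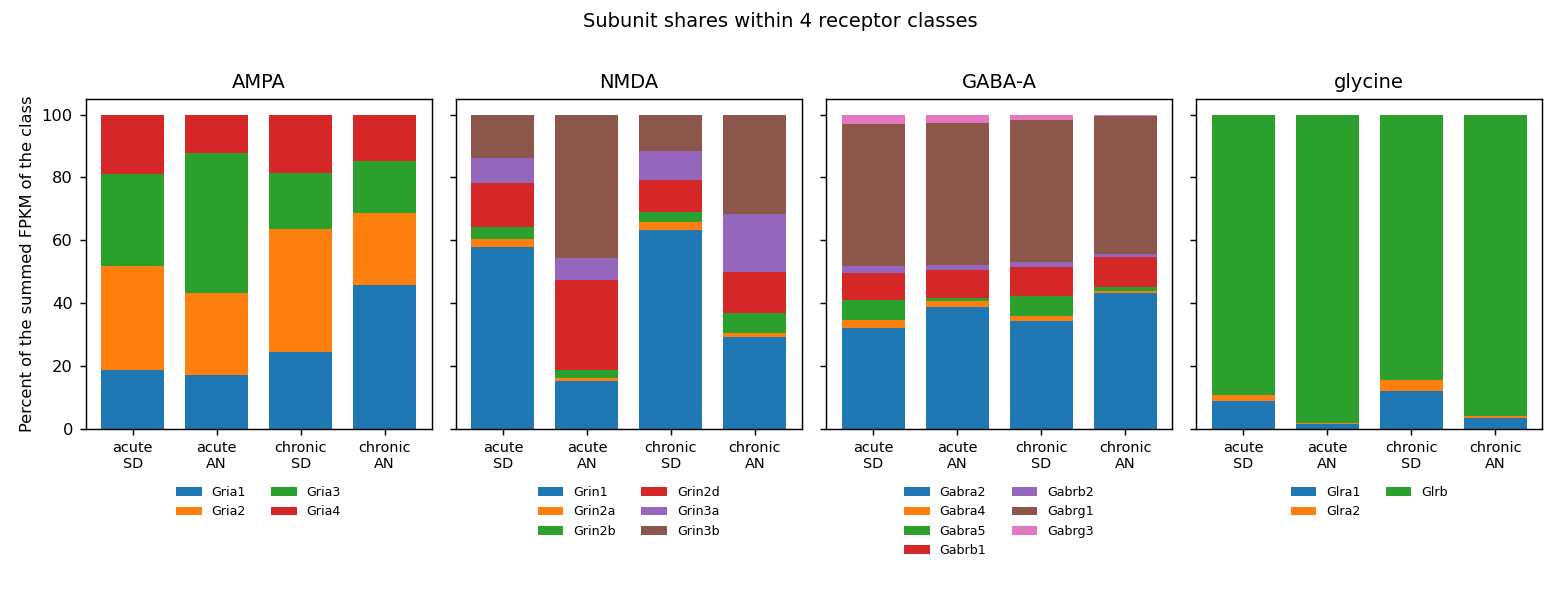
Share of each named subunit in the summed FPKM of its class (stacked bars, percent) for AMPA, NMDA, GABA-A and glycine receptors in the 4 groups, each bar 1 value for 3 rats. The Grin1 part of the NMDA bars is smaller in AN than in SD cord in both phases, and the Glra1 and Glra2 parts of the glycine bars are smaller too.

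Nicotinic acetylcholine receptors are cation channels. Chrna4 and Chrnb2, which together form the most common nicotinic receptor of the brain, were both lower in AN cord. Chrna4 was at 1.97 against 0.25 FPKM and then 3.40 against 0.693 (−2.97 and −2.29), and Chrnb2 was at 3.39 against 0.899 and then 3.96 against 1.48 (−1.92 and −1.42). For Chrna4, the name in the supplementary table and the name that its position gave differed, and the former was used.

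Chrna7, which forms receptors by itself, was at 1.42 against 0.598 FPKM and then 1.80 against 0.410 (−1.25 and −2.13). Its acute ratio was 0.89 above the chronic one, the largest such excess in the set, but its name rests on being the sole candidate between its neighbours. Chrna3 had too few fragments at 1 week (0.345 against 0.0968 FPKM) and was at 0.537 against 0.336 at 8 weeks (−0.68).

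Muscarinic receptors couple acetylcholine to G proteins. Chrm2 was at 1.38 against 0.145 FPKM and then 1.86 against 0.451 (−3.26 and −2.04), and Chrm3 was at 0.840 against 0.121 and then 1.56 against 0.252 (−2.79 and −2.63). Chrm1 differed from both. It was at 0.603 against 0.233 FPKM at 1 week (−1.37) and at 1.59 against 2.64 at 8 weeks (0.73), where it was higher in AN cord by less than 2-fold. Htr2a, a serotonin receptor found on motor neurons, was at 1.09 against 0.293 FPKM and then 0.833 against 0.227, with nearly the same ratio in both phases (−1.90 and −1.88).

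The strain ratios of the 37 members measured in both phases were compared gene by gene. The acute ratio was below the chronic one for 30 of 37, where this held for 55.6% of 11679 genes, and the median difference between them was −0.68 on the log2 scale against −0.05 over all genes. This contrast depends on the names as well. The acute ratio was below the chronic one for 28 of the 30 members named from the supplementary table, whose genes were called in the acute phase, and for 2 of the other 7 (Gria1 and Chrm1), whose median difference was 0.38. With the supplementary names withheld it was below for 23 of 30, with a median of −0.56. Of the 37, 19 were at least 2-fold lower in both phases, 10 in the acute phase alone and 1 in the chronic phase alone. The other 7, under 2-fold apart in both, were Gria3, Grin3b, Grik2, Grik3, Grik5, Grid1 and Glrb. For 12 members the phases were at least 1 log2 unit apart, led by Chrm1 (−2.10), Grm4 (−1.78) and Grin2b (−1.59), and for Gabbr2, Glra2, Htr2a and Gria2 the difference lay between −0.11 and 0.13.

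**Figure D4:**
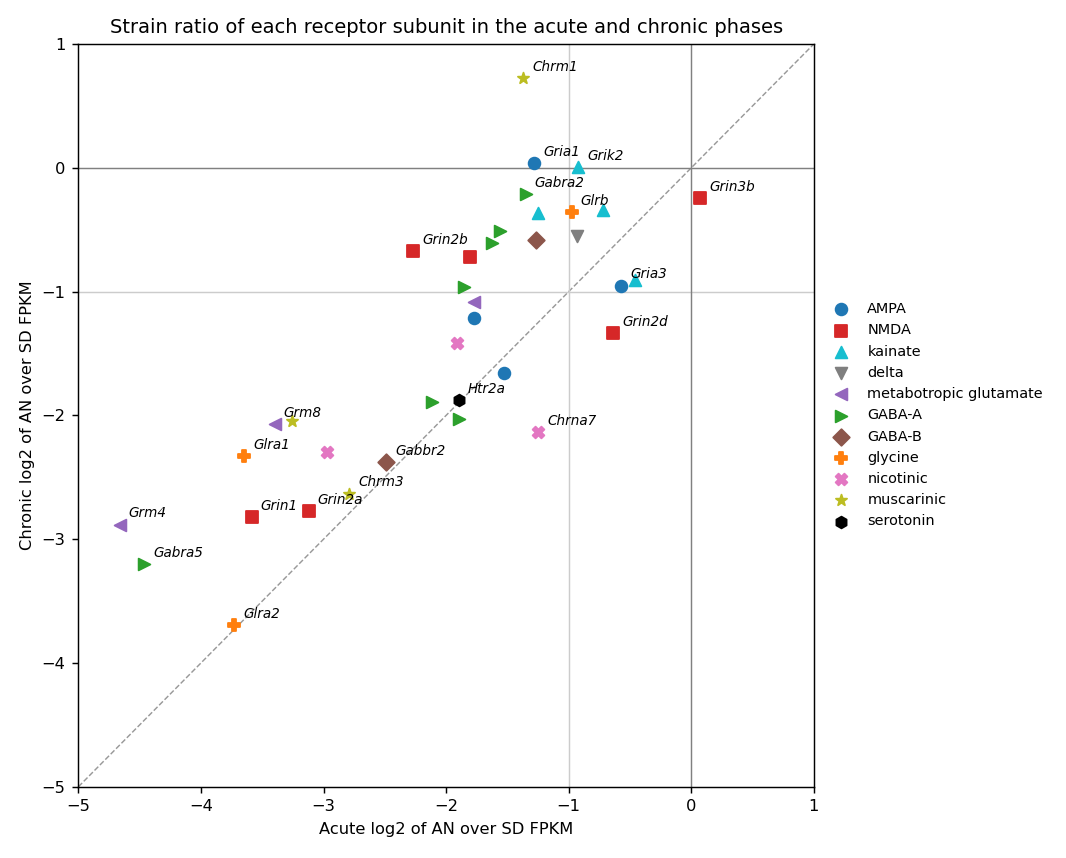
Log2 ratio of AN to SD FPKM for each of 37 receptor subunits in the acute (x axis) and chronic (y axis) phase, coloured by class, with grey lines at 0 and −1 and a dashed line of equal ratios. Most points lie above the dashed line, with Chrm1 furthest above it and Chrna7 furthest below, while Glra2, Htr2a and Gabbr2 lie close to it.

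Subunits with a low level tended to have lower ratios. Across genes, which are not independent replicates, Spearman's rho between the mean FPKM of the strains and the log2 ratio was 0.58 over 37 members at 1 week and 0.50 over 38 at 8 weeks. The mean contains the AN value, so the measures share a part. Of members with a mean of 5 FPKM or more, 6 of 11 were lower at 1 week and 3 of 14 at 8 weeks, against 23 of 26 and 17 of 24 of those under 5 FPKM.

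Neuron markers were lower in AN cord too, so each member was set beside them. Of 12 genes in that list, 10 were named, all from the supplementary table. Its genes were called in the acute phase, so the naming itself favoured markers with an acute strain difference. At 1 week 10 of 10 were lower, with a median log2 ratio of −2.76, and at 8 weeks 9 of 10 were, with a median of −1.89. For the 9 markers also named by position, the medians were −2.37 and −1.83, so the neuron median depends on the names too. The summed FPKM of the neuron markers was 1124 in SD and 158 in AN cord at 1 week and 1045 and 301 at 8 weeks. By FPKM summed over the 4 groups Eno2 and Tubb3 were the most abundant, though not in each group. Eno2 (a neuronal enolase), the neuron marker with the ratio nearest to 0 in both phases, was at 139, 66.5, 160 and 87.2 FPKM in acute SD, acute AN, chronic SD and chronic AN cord, and Tubb3 (a neuronal tubulin) was at 206, 40.1, 139 and 57.5.

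Of the 37 members, 10 had an acute ratio below the neuron median: Grin1, Grin2a, Grm4, Grm8, Gabra5, Glra1, Glra2, Chrna4, Chrm2 and Chrm3. At 8 weeks 13 of 38 did, namely those 10 with Gabrg3, Gabbr2 and Chrna7. The acute count rests on low levels, since with a pseudocount of 0.1 FPKM it was 4. The median member was 0.99 above the neuron median at 1 week and 0.74 above it at 8 weeks. The part of a lower neuronal share of the tissue in these ratios was not tested.

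Markers of other cells also differed between strains. The median log2 ratio in the acute phase was −1.10 for astrocyte markers (6 genes), −1.27 for oligodendrocyte markers (6), −0.68 for oligodendrocyte precursor markers (5), −1.07 for Schwann cell markers (5), −1.22 for skeletal muscle markers (4) and 0.72 for macrophage and microglia markers (6). At least 2-fold lower at 1 week were 3 of 6 astrocyte, 5 of 6 oligodendrocyte, 0 of 5 precursor, 3 of 5 Schwann cell, 2 of 4 muscle and 1 of 6 macrophage and microglia markers, and 2 of 6 macrophage and microglia markers were at least 2-fold higher. The summed FPKM of the oligodendrocyte markers was 5585 in SD and 2402 in AN cord in the acute phase, and that of the macrophage and microglia markers was 1590 and 2403. At 8 weeks the medians were −0.15 (5 genes), −0.19 (7), −0.24 (5), 0.27 (5), −0.96 (4) and 0.19 (6). T cell markers had a median of −1.81 at 1 week, with 5 of 6 lower, and of −0.05 at 8 weeks, with 0 of 6 lower and 1 higher. The part of these cells in the receptor ratios was not tested.

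Other genes of the same pathways were read in the same way and under the same limit on names. Of 14 other receptor subunits with an acute ratio, 7 were lower and 1 was higher. The higher one was Gabrr2, a rho subunit of GABA-A receptors (1.14). At 8 weeks 7 of 16 were lower, the lowest being the serotonin receptor Htr7 (−3.10), and Htr1b was higher (1.03). Of 17 genes for auxiliary subunits and scaffolds of excitatory synapses, 10 were lower at 1 week and 8 at 8 weeks, with medians of −1.45 and −0.64. Cacng2, the AMPA receptor auxiliary subunit stargazin, was at −5.03 and Cacng3, of the same family, at −3.36 at 1 week, and the kinase gene Camk2a was at −2.89 and Cacng3 at −2.88 at 8 weeks.

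Of 4 scaffold genes of inhibitory synapses, 1 was at least 2-fold lower at 1 week (Lhfpl4, a GABA-A receptor partner, −1.34) and 0 at 8 weeks, when Lhfpl4 was at −0.94. Gphn, which codes for the glycine receptor anchor gephyrin, was at 23.5 against 18.3 FPKM and then at 27.5 against 21.8 (−0.37 and −0.33).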

How the data were processed

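RNA-seq of polyadenylated RNA was performed on 12 rats, 3 for each strain and phase. Per the labels and the study's methods, the authors removed adapters with CutAdapt, mapped reads to RN4 with TopHat 1.5.0, assembled transcripts with Cufflinks 0.0.6 using quartile normalization and compared strains with CuffDiff. The authors deposited 2 tables of FPKM, 1 value for each group of 3 rats, with 17423 rows and 17421 identifiers each. The deposited fold change, test statistic, p-value, q-value and significance columns hold the authors' own comparisons and were not used. The tables give no reads per gene or per rat, so the depth and precision behind a value are unknown, and no test was run.

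Members and lists were chosen with earlier results of these data known. The tables give Rat Genome Database identifiers without symbols. Of these identifiers, 1997 were named from the supplementary gene table, 2726 through database synonyms in a RefSeq gene table (GRCr8, used for names and order only) and 8205 by their order, distance or sole position between named neighbours on RN4. Of 2250 names held out, 1818 were named again by position and 1757 of these (96.6%) correctly, with 44 of 53 (83.0%) for sole candidates. Of the 39 members, 30 were named directly, 4 by order, 3 by order and distance and 2 as sole candidates (Grin3b and Chrna7). Grik1 was left out because 2 identifiers share its locus.

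Ratios used no pseudocount. All named members are described. Other genes were named in the text where called: the 2 with the largest ratio in each direction and phase for pathway lists, and the 2 most abundant over the 4 groups for the neuron markers. Gphn, named after its values were seen, and Chrnb3 were called in neither phase and fall outside this rule. Some genes that this rule selects are not reported here. The counting of calls was tested on simulated data with known ratios. Alternatives were the fold (1.5 or 4), no fragment filter, a mean of at least 1 FPKM, pseudocounts of 0.1 and 1, centring, names, and for the neuron comparison the mean of the list or a list of 4 genes, of which 3 entered. Python 3.11.15, scipy 1.17.1 and matplotlib 3.10.9 were used.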

Additional observations from a re-analysis of the deposited data

How the results depend on the processing

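No ratio median or count of calls changed direction under the alternatives run, but the median difference between phases did, from −0.68 to 0.38 among members not named from the supplementary table. Leaving out single rats was not possible because the tables hold 1 value per group. No paired analysis was possible because no values per rat are in the tables used here. The depth behind low FPKM values is unknown.

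Of 201 recomputed values, 157 stayed within the tolerance (a factor of 1.5 for counts, 0.25 log2 for medians) and 44 moved. At 4-fold, 13 members were lower in AN rats at 1 week and 13 at 8 weeks. At 1.5-fold, 1 member (Chrm1) was higher in the chronic phase. With a mean of at least 1 FPKM, 17 members were lower at 1 week (median log2 ratio −1.35) and 13 at 8 weeks. The acute medians were then −1.22 for NMDA, −1.77 for metabotropic glutamate, −1.59 for GABA-A and −2.31 for glycine receptors, and the chronic medians were −0.56 for GABA-A and −1.34 for glycine receptors. With a pseudocount of 1, 17 members were lower at 1 week (median −0.85) and 10 at 8 weeks (median −0.69), and the median difference between phases was −0.19. The acute class medians were then −0.60 for NMDA, −1.10 for metabotropic glutamate, −1.04 for GABA-A and −0.94 for glycine receptors, and the chronic ones −0.59, −0.83, −0.58 and −1.20. The AMPA (−1.17 and −0.91) and kainate (−0.72 and −0.33) medians moved less, which changed the order of the classes. With a pseudocount of 0.1, the acute medians were −1.69 for NMDA, −2.26 for metabotropic glutamate and −2.55 for glycine receptors, the chronic metabotropic glutamate median was −1.70, and 4 members lay below the acute neuron median. Without the fragment filter, Grm2 entered and the metabotropic glutamate medians were −2.83 and −2.39. With directly named members only, a choice tied to the acute outcome, the chronic median was −1.54, the NMDA medians were −2.69 and −1.75, and the chronic AMPA median was −1.43. Naming by position alone, leaving out sole candidates or shared loci, and taking only members not named from the supplementary table were chosen after seeing the data. The last gave medians of −0.64 and −0.79. Without shared loci the NMDA medians were −2.69 and −2.05. The chronic NMDA median was −1.33 without sole candidates and −1.33 with members named by position, both with their supplementary name withheld and with no supplementary name. The other values recomputed under these settings stayed within the tolerance.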

Other observations

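Some receptor genes outside the set were not lower in AN cord at 8 weeks. Htr1b, which codes for a serotonin receptor, was at 1.38 FPKM in chronic SD and 2.82 in chronic AN cord, where in the acute phase it was at 1.09 and 0.613. Chrnb3, a nicotinic subunit, was at 0.985 against 0.680 FPKM in the acute and 3.60 against 4.67 in the chronic phase. The GABA-A receptor rho subunit Gabrr2 was at 1.41 against 3.11 FPKM in the acute and 1.13 against 1.46 in the chronic phase. These values rest on 1 value for each group and were not tested.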
